A study of Mus musculus with 22 samples.

Results

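The positions of MTF2 and EZH2 on chromatin were compared in wild-type mouse embryonic stem cells of the E14 line, which were grown in serum with LIF. The members were all regions of the MTF2 list and all regions of the EZH2 list from these cells: 6357 MTF2 and 7213 EZH2 peaks, 13570 of the 76045 regions in the 7 peak lists of the series. Both groups share line, genotype (WT), medium and library protocol, and differ in the antibody (Aviva ARP34292 for MTF2, Diagenode C15410039 for EZH2), so that factor and antibody cannot be told apart. The series has 22 samples in 12 groups, and 2 libraries stand behind each list. As readouts that took no part in choosing the members, the H3K27me3 and H3K4me3 lists of the same wild-type cells were used, and the EZH2 list of cells labelled Mtf2 GT/GT, in which a gene-trap cassette disrupts the Mtf2 coding sequence. The labels do not name the line from which the Mtf2 GT/GT cells came.

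Polycomb repressive complex 2 (PRC2) places methyl groups on lysine 27 of histone H3 and thereby keeps developmental genes silent in embryonic stem cells. EZH2 is its catalytic subunit, working with EED and SUZ12. MTF2, also called PCL2, is one of the Polycomb-like proteins that join the PRC2 core as accessory subunits. It binds DNA that is rich in unmethylated CpG, and the series title names this DNA binding as the way in which PRC2 is recruited. A comparison of both lists asks where the DNA-binding partner and the catalytic subunit were called together, where one was called alone, and how their edges lay.

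Each list gives the chromosome, start and end of its regions, with no height, score or count, so that depth is unknown and widths are the only size a peak has here. There is 1 list per antibody, so no error between cultures could be measured and no test between the antibodies was possible. Intervals are at the 95% level, exact (Clopper-Pearson) for shares and from order statistics for medians. These intervals cover counting error over regions only, and neighbouring regions are not independent. All positions are on GRCm38 (mm10), counted from 1.

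The sequences below show what the DNA looked like in the classes of peak that the results turn on. Each is 200 bp of the plus strand of the RefSeq GRCm38 sequence, outside annotated exons, with GCG and CGC in capitals. CGC is GCG read on the other strand, each match contains a CpG, and matches may overlap. The motif letters occur in most windows of this length: at the centres of 97.4% of all MTF2 peaks, of 95.4% of all EZH2 peaks, of 97.0% of MTF2-only peaks and of 85.8% of EZH2-only peaks.

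First, the middle of the widest one-to-one pair with its central 200 bp outside annotated exons (chr7:137316126-137316325, inside 14339 bp called for both factors). The pair lies over Ebf3, a transcription factor gene. The window holds 1 CpG and no GCG or CGC, so a wide domain shared by both factors can run across CpG-poor sequence.
Ebf3 shared domain: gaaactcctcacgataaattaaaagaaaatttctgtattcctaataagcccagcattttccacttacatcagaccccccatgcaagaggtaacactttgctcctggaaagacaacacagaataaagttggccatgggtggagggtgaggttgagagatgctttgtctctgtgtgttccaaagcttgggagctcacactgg

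Then 2 promoters where 1 factor was called alone. At Sycp2, a gene for a meiotic chromosome protein, the window lies in an MTF2 peak of 230 bp (chr2:178407149-178407348, in an intron) and holds 13 CpG and 12 matches. At Gdf11, a secreted growth factor of the TGF-beta family, it lies in an EZH2 peak of 433 bp (chr10:128892296-128892495, intergenic, 462 bp from the transcription start site, TSS) and holds 7 CpG and 4 matches.
Sycp2 MTF2 alone: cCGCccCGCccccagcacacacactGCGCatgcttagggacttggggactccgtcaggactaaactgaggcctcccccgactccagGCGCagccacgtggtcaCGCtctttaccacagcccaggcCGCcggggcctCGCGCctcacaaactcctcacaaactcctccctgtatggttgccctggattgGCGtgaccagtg
Gdf11 EZH2 alone: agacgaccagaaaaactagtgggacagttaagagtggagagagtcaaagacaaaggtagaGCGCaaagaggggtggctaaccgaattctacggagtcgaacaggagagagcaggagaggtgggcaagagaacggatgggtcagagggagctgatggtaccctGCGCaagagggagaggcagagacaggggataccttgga

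Next, a pair in which a narrow MTF2 peak of 290 bp lies inside an EZH2 peak of 1874 bp, in an intron of Lmx1b, a LIM homeobox gene. The window under MTF2 (chr2:33579494-33579693) holds 3 CpG, and the window in the longer stretch of EZH2 beyond it (chr2:33580205-33580404) holds none.
Lmx1b under MTF2: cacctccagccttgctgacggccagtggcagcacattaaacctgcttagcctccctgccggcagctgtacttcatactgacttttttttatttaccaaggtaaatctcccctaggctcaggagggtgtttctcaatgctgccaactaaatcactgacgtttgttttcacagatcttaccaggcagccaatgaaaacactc
Lmx1b EZH2 beyond MTF2: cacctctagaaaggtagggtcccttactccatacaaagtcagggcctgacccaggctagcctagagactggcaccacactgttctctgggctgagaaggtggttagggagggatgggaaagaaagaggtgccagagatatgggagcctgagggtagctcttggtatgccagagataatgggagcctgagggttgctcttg

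The pair with the widest stretch of EZH2 beyond MTF2 went the other way. It lies on chromosome 1 over an annotated microRNA gene, Gm27552, with an MTF2 peak of 1889 bp inside an EZH2 peak of 4239 bp. Both printed windows are intergenic. The window under MTF2 (chr1:171070564-171070763) holds 16 CpG and that in EZH2 beyond it (chr1:171072646-171072845) holds 20.
chr1 under MTF2: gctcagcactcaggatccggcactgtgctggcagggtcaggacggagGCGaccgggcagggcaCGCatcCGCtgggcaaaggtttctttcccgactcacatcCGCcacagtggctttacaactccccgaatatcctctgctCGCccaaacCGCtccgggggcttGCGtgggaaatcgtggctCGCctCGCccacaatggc
chr1 EZH2 beyond MTF2: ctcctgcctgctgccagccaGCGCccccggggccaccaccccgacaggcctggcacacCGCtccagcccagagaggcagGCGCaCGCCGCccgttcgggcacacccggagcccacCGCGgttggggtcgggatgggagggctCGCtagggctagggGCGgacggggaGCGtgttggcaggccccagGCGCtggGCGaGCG

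Last, the centres of the widest peak of each factor that did not touch the other: an MTF2 peak of 1553 bp (window chr6:47672806-47673005) and an EZH2 peak of 1627 bp (window chr6:47748946-47749145), both intergenic on chromosome 6, with 74550 bp between the peaks.
chr6 MTF2 alone: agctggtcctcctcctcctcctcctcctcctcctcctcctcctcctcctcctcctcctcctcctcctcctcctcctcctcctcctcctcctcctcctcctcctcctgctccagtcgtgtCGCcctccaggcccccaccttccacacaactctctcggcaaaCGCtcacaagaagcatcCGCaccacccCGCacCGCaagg
chr6 EZH2 alone: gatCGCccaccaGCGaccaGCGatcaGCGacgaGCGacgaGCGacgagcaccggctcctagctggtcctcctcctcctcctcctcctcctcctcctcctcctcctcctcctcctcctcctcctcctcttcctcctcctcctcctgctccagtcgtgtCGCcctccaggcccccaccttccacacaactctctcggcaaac
The windows share a stretch of 72 identical bp, both run through a repeated CTC, and neither peak overlapped H3K27me3. Reads from such near-identical copies cannot be placed with certainty, so these 2 peaks are uncertain as sites of 1 factor. The EZH2 peak also ended 76 bp from the next MTF2 peak.

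Nearly all MTF2 peaks lay on EZH2, and fewer EZH2 peaks lay on MTF2. By an overlap of at least 1 bp, 5959 of the 6357 MTF2 peaks (93.7%, 95% interval 93.1 to 94.3) touched an EZH2 peak, and 398 did not. Of the 7213 EZH2 peaks, 5831 (80.8%, 79.9 to 81.7) touched an MTF2 peak, and 1382 did not. In bases the lists were closer still. MTF2 peaks covered 7.74 Mb and EZH2 peaks 8.63 Mb, and the 7.37 Mb covered by both came to 95.1% of the MTF2 bases, 85.4% of the EZH2 bases and 81.8% of the bases in either list. MTF2-only peaks held 1.55% of all MTF2 bases and EZH2-only peaks 4.87% of all EZH2 bases. Hardly any pair was shared by its edges alone: 49 of the 6239 overlaps were 50 bp or less, and the median overlap was 834 bp.

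The single-factor peaks were the narrow ones. MTF2-only peaks had a median width of 251 bp (243 to 262) and shared MTF2 peaks of 924 bp (898 to 950). EZH2-only peaks had a median width of 256.5 bp (246 to 264) and shared EZH2 peaks of 1006 bp (977 to 1042). When each list was cut into 5 classes of equal size by width, the shared share was 74.5% in the narrowest MTF2 class (184 to 387 bp), and 94.9%, 99.4%, 99.9% and 100% in the wider ones. For EZH2 it was 35.1% in the narrowest class (170 to 318 bp), and 74.5%, 95.2%, 99.4% and 100% in the wider ones. The chance to touch another peak grows with the length of a peak, so the rule itself ties overlap to width. In the narrowest class the share was higher for MTF2 than for EZH2, with intervals of 72.0 to 76.9% and 32.7 to 37.7%, at median widths of 263.5 bp for MTF2 and 223 bp for EZH2. No peak of the widest class stood alone, in either list.

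**Figure D1:**
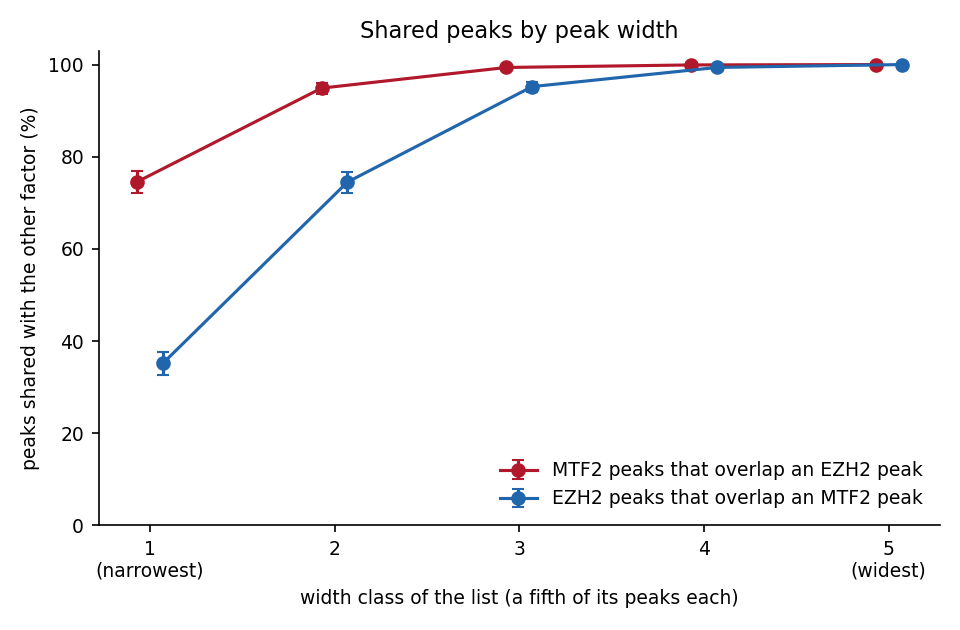
Share of MTF2 peaks that overlap an EZH2 peak and of EZH2 peaks that overlap an MTF2 peak (vertical axis, percent), by width class of the peak's own list (horizontal axis, 5 classes of equal size). Bars are exact 95% intervals; the share runs between 74.5% and 100% for MTF2 and between 35.1% and 100% for EZH2.

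Many single-factor peaks were close neighbours of the other factor, EZH2-only peaks more often. The nearest EZH2 peak was within 1 kb of 139 MTF2-only peaks (34.9%, 30.2 to 39.8), at a median distance of 15678 bp over all 398. The nearest MTF2 peak was within 1 kb of 755 EZH2-only peaks (54.6%, 52.0 to 57.3), at a median distance of 660 bp over all 1382. Farther than 100 kb from the other factor stood 124 MTF2-only peaks (31.2%) and 238 EZH2-only peaks (17.2%). The near and the far ones differed in the marks they overlapped. H3K27me3 overlapped 95.4% of all MTF2 and 94.1% of all EZH2 peaks, and its regions had a median width of 3631 bp. A peak within 1 kb of the other factor can thus lie in the same region, so the distance rule itself ties near peaks to this mark. Among MTF2-only peaks, H3K27me3 overlapped 88.5% (82.0 to 93.3) of those within 1 kb of EZH2, and 58.9% (49.7 to 67.6) of those beyond 100 kb. H3K4me3, the mark of active and poised promoters, overlapped 71.2% of the near and 88.7% of the far MTF2-only peaks. EZH2-only peaks went the same way, with H3K27me3 on 95.6% of the near and 59.2% of the far ones, and H3K4me3 on 47.2% of the near and 90.8% of the far ones. In their central 1 kb, MTF2-only peaks had a median of 3.6 CpG per 100 bp (3.2 to 4.1) when near and 5.35 (4.5 to 6.1) when far. EZH2-only peaks had 2.3 (2.1 to 2.5) when near and 6.5 (6.0 to 7.4) when far. Widths were alike, with medians of 243 and 272.5 bp for near and far MTF2-only peaks and of 255 and 258.5 bp for near and far EZH2-only peaks. The CpG window of 1 kb thus included much sequence beside these peaks.

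Peaks of both factors carried the PRC2 mark more often than peaks of 1 factor. H3K27me3 overlapped 300 of 398 MTF2-only peaks (75.4%, 70.8 to 79.5) and 96.7% of shared MTF2 peaks. It overlapped 1156 of 1382 EZH2-only peaks (83.6%, 81.6 to 85.6) and 96.6% of shared EZH2 peaks. A narrow peak is less likely to touch a mark, so the narrowest classes were also compared alone. In them H3K27me3 overlapped 76.2% (71.2 to 80.8) of MTF2-only and 89.8% (87.7 to 91.6) of shared MTF2 peaks, and 81.4% (78.8 to 83.9) of EZH2-only and 86.0% (82.7 to 88.9) of shared EZH2 peaks. H3K4me3 overlapped 79.1% of MTF2-only and 89.8% of shared MTF2 peaks over all widths, and 62.2% of EZH2-only and 91.3% of shared EZH2 peaks. In the narrowest class the order turned round for MTF2 (79.3% of MTF2-only and 73.8% of shared peaks) and not for EZH2 (63.1% of EZH2-only and 83.0% of shared peaks). Neither mark was on 14 of 398 MTF2-only peaks (3.52%, 1.94 to 5.83) and 0.285% of shared MTF2 peaks, or on 18 of 1382 EZH2-only peaks (1.30%, 0.774 to 2.05) and 0.274% of shared EZH2 peaks.

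The place in the gene differed between the classes, for MTF2 in an order that depended on width. MTF2-only peaks reached a protein-coding promoter, the window of 1 kb on either side of a TSS, in 56.5% of cases (51.5 to 61.5), and shared MTF2 peaks in 62.7%. In the narrowest MTF2 class the order turned round, with 56.8% (51.2 to 62.3) of MTF2-only and 46.5% (43.3 to 49.8) of shared peaks at promoters. EZH2-only peaks did so in 43.5% (40.9 to 46.1) and shared EZH2 peaks in 64.0%, and in the narrowest EZH2 class 406 of 936 EZH2-only and 279 of 507 shared peaks did. Away from promoters, introns held 22.6% of EZH2-only and 10.8% of shared EZH2 peaks. By chromosome, EZH2 was called on 87.0% (80.9 to 91.8) of the 162 MTF2 peaks of the X chromosome, and on 91.3 to 96.3% of those of each autosome, with an interval that reached into that range. In the other direction, MTF2 was called on 85.1% (78.8 to 90.1) of the 168 EZH2 peaks of the X chromosome and on 76.8 to 84.6% of those of each autosome. No MTF2 or EZH2 peak lay on the Y chromosome. In Mtf2 GT/GT cells an EZH2 peak was called on none of the 398 MTF2-only peaks (0%, upper limit 0.923%) and on 358 of 5959 shared MTF2 peaks (6.01%). It was called on 8 of 1382 EZH2-only peaks (0.579%) and on 335 of 5831 shared EZH2 peaks (5.75%). Shared peaks are the wider ones, and the part of width in this was not tested. MTF2-only peaks were chosen for lacking EZH2 in wild-type cells, so their 0 is not independent of that choice.

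Of the shared peaks, 4965 MTF2 peaks met 1 EZH2 peak each, and that EZH2 peak met no other MTF2 peak. In these one-to-one pairs the MTF2 peak was usually slightly the narrower. MTF2 peaks had a median width of 916 bp (890 to 943) and EZH2 peaks of 995 bp (966 to 1029). The median width ratio within a pair was 0.945 (0.941 to 0.949), which is -0.082 on the log2 scale, or a difference of -63 bp (-67 to -58). The MTF2 peak was the narrower of the pair in 3527 pairs (71%, 69.8 to 72.3), the wider in 1427 and of the same width in 11. Most differences were small, since the quartiles of the ratio were 0.850 and 1.01. MTF2 had over 2 times the width of EZH2 in 52 pairs, and EZH2 over 2 times the width of MTF2 in 125. Across pairs the log2 widths went together (Pearson r = 0.944, Spearman rank correlation 0.956, n = 4965 pairs). This is a description, since both peaks of a pair lie at the same locus and both lists came from the same line.

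**Figure D2:**
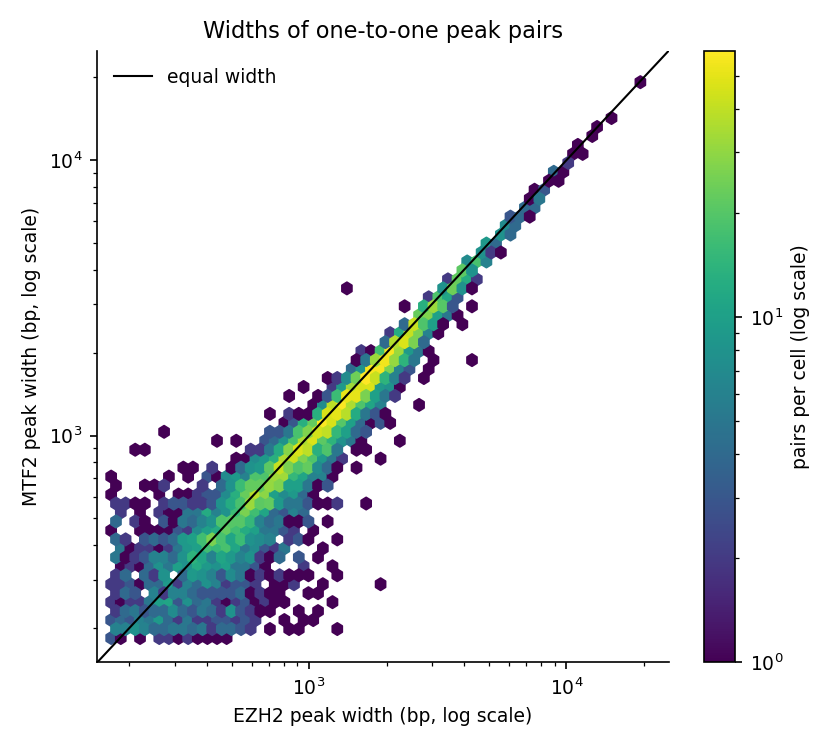
Width of the MTF2 peak (vertical axis, bp, log scale) against that of the EZH2 peak (horizontal axis, bp, log scale) in the 4965 one-to-one pairs; colour gives the number of pairs per cell. The line marks equal width, and 3527 pairs lie below it.

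The peaks of a pair were centred on nearly the same base. The centres were a median of 43.5 bp apart (42.0 to 45.5), within 100 bp in 79.9% of pairs, and more than 500 bp apart in 6. Offsets had no side on the chromosome: the MTF2 centre lay to the right in 2452 pairs and to the left in 2492. The edges show where the difference in width was. The MTF2 edge lay inside the EZH2 edge by a median of 21 bp (18 to 24) on the left and 22 bp (20 to 24) on the right. Both MTF2 edges were within 100 bp of the EZH2 edges in 2481 of the 4965 pairs. MTF2 peaks were covered by their EZH2 peak to a median of 99.3%, and EZH2 peaks by their MTF2 peak to a median of 91.9%. Along the gene, in 3113 pairs at promoters, the inset was 17 bp (15 to 20) on the upstream side and 26 bp (23 to 28) on the downstream side. The difference between the sides was a median of 9 bp (4 to 13).

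Nesting was the most frequent arrangement in wide pairs. The MTF2 peak lay within the EZH2 peak in 2161 of the 4965 pairs (43.5%, 42.1 to 44.9), counting 1 pair with the same edges. The EZH2 peak lay within the MTF2 peak in 656 (13.2%, 12.3 to 14.2), and the edges were staggered in 2148 (43.3%). With pairs cut into 5 classes of 993 by their geometric mean width, the share with MTF2 inside was 31.5% (28.6 to 34.5) in the narrowest class, then 34.0%, 39.5% and 52.5%, and 60.0% (56.9 to 63.1) in the widest. The share with EZH2 inside was 20.1%, 17.3%, 13.5%, 9.47% and 5.64% in the same order. In the widest class, of 1834 bp and more, the median insets were 48 and 51 bp, and in the narrowest 6 and 9 bp. The median width ratio hardly moved between the classes, from 0.945 in the narrowest to 0.953 in the widest.

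**Figure D3:**
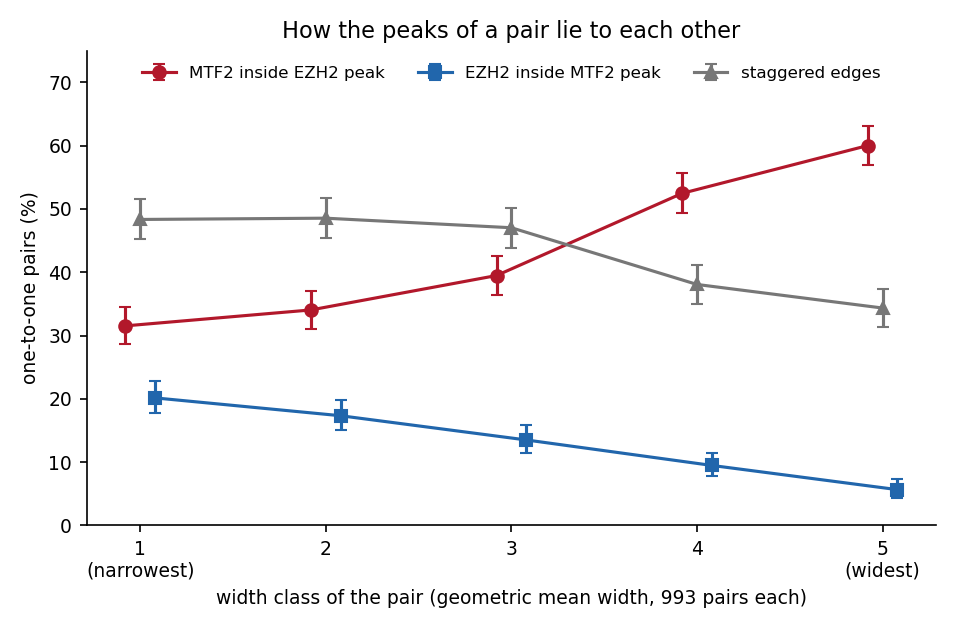
Share of one-to-one pairs (vertical axis, percent) in which the MTF2 peak lies inside the EZH2 peak, the EZH2 peak lies inside the MTF2 peak, or the edges are staggered, by width class of the pair (horizontal axis, 993 pairs each). Bars are exact 95% intervals; MTF2 inside EZH2 runs between 31.5% in the narrowest and 60.0% in the widest class.

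Of the one-to-one pairs, the 5 with the widest MTF2 peak belonged to developmental transcription factors, and their edges lay close together for their width. One-to-one pairs leave out wide EZH2 peaks that hold several MTF2 peaks, such as that of 34766 bp from Hoxa3 to Hoxa10. At Six3, a regulator of the forebrain and eye, the MTF2 peak was 19222 bp wide (chr17:85607452-85626673) and the EZH2 peak 19404 bp (chr17:85607371-85626774), with insets of 81 and 101 bp. At Ebf3 the MTF2 peak was 14351 bp and the EZH2 peak 14521 bp. Tbx2, a T-box factor of heart and limb development, had 13583 bp of MTF2 and 13587 bp of EZH2, with insets of -30 and 34 bp. Zic2, a zinc finger factor of the forebrain, had 12347 bp of MTF2 and 12378 bp of EZH2. Otx1, a homeobox factor of the brain, had 11482 bp of MTF2 (chr11:21992632-22004113) and 11473 bp of EZH2 (chr11:21992633-22004105). At these 5 loci no MTF2 edge was more than 182 bp from the EZH2 edge.

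The 10 pairs that differed most in width, 5 in each direction, were far narrower, and 7 of them reached no promoter window. After the chromosome 1 and Lmx1b pairs printed above, EZH2 reached farthest beyond MTF2 in a pair on chromosome 18 (957 bp of MTF2 and 2341 bp of EZH2), at Dnajc22 (2499 bp of MTF2 and 3845 bp of EZH2) and in an intergenic pair on chromosome 11 (1342 bp of MTF2 and 2661 bp of EZH2). All 5 overlapped H3K27me3. In the opposite direction the largest difference, 3288 bp of MTF2 and 1391 bp of EZH2 (chr8:123616475-123619762 for MTF2), lies on annotated 5S ribosomal RNA genes, where reads from near-identical copies cannot be placed with certainty, and had no H3K27me3. The next were in Micall1 (1067 bp of MTF2 and 270 bp of EZH2), an intergenic pair on chromosome 14 (914 bp of MTF2 and 234 bp of EZH2) and Fam171a2 (870 bp of MTF2 and 205 bp of EZH2).

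Some EZH2 peaks, mostly wide ones, held several MTF2 peaks, and some MTF2 peaks several EZH2 peaks. Of the shared MTF2 peaks, 271 (4.55%, 4.03 to 5.11) held 2 or more EZH2 peaks, and of the shared EZH2 peaks 361 (6.19%, 5.59 to 6.84) held 2 or more MTF2 peaks. In the widest of the 5 classes the shares were 7.63% of MTF2 and 15.2% of EZH2 peaks. A peak is said to hold each peak of the other list that it overlaps by at least 1 bp, also where that peak reaches past its edge. Both counts depended on the overlap rule and on the treatment of narrow and neighbouring peaks. With an overlap of 50% of the shorter peak required they were 184 MTF2 and 321 EZH2 peaks. With peaks under 500 bp left out they were 83 MTF2 and 146 EZH2 peaks, and with peaks within 1 kb joined in each list 4 MTF2 and 105 EZH2 peaks. The counts went up to 6 MTF2 peaks in 1 EZH2 peak and 4 EZH2 peaks in 1 MTF2 peak. In groups of touching peaks, 316 had several MTF2 peaks with 1 EZH2 peak, 226 had 1 MTF2 peak with several EZH2 peaks, and 44 had several of each. The breaks were short. Neighbouring MTF2 peaks in 1 EZH2 peak were a median of 102 bp apart (95 to 109), and neighbouring EZH2 peaks in 1 MTF2 peak 81 bp (77 to 86). MTF2 peaks together covered a median of 88.7% of the EZH2 peak that held them, and EZH2 peaks 92.4% of the MTF2 peak that held them. EZH2 peaks over several MTF2 peaks, and touching no second EZH2 peak through them, had a median width of 2302 bp, against 1006 bp for all shared EZH2 peaks. An EZH2 peak of Mtf2 GT/GT cells overlapped 75 of these 316 (23.7%, 19.2 to 28.8) and 5.75% of all shared EZH2 peaks, and the part of width in this was not tested.

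The EZH2 peaks that held the most MTF2 peaks, 6 each, lay in the Hox clusters, which pattern the body axis. From Hoxa3 to Hoxa10, 6 MTF2 peaks of 5622, 2279, 3441, 8127, 11778 and 231 bp, with breaks of 211, 974, 443, 773 and 377 bp, lay in the widest EZH2 peak of the list, of 34766 bp (chr6:52201965-52236730). They covered 90.5% of it. At Hoxb2, 6 MTF2 peaks, 1 of 3970 bp and the others of 200 to 928 bp, lay in an EZH2 peak of 7725 bp. At Cdx2, a homeobox regulator of trophoblast and intestine, 5 MTF2 peaks lay in an EZH2 peak of 9207 bp and covered 88.6% of it. In Scarf2, outside its promoter window, 4 MTF2 peaks lay in an EZH2 peak of 7176 bp. At Tfap2a, a regulator of neural crest and skin, 3 lay in an EZH2 peak of 12764 bp, the widest of 34 EZH2 peaks with 3. All 5 of these named EZH2 peaks overlapped an EZH2 peak of Mtf2 GT/GT cells.

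The reverse was seen at Lhx8, a LIM homeobox factor of the forebrain, where an MTF2 peak of 7090 bp met 3 EZH2 peaks of 5682, 1228 and 215 bp. At Nkx2-1, a regulator of thyroid, lung and ventral forebrain, an MTF2 peak of 6531 bp met 3 EZH2 peaks of 337, 708 and 5622 bp. At Cdh13, which encodes a cadherin, an MTF2 peak of 2498 bp met 3 EZH2 peaks, and at E030030I06Rik an MTF2 peak of 3414 bp met 4. Over the whole list 7 MTF2 peaks met 3 EZH2 peaks and 1 met 4. A further MTF2 peak of 5798 bp with 3 EZH2 peaks (chr17:39843031-39848828) lies on annotated ribosomal RNA, a repeated sequence, and is uncertain for that reason.

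**Figure D4:**
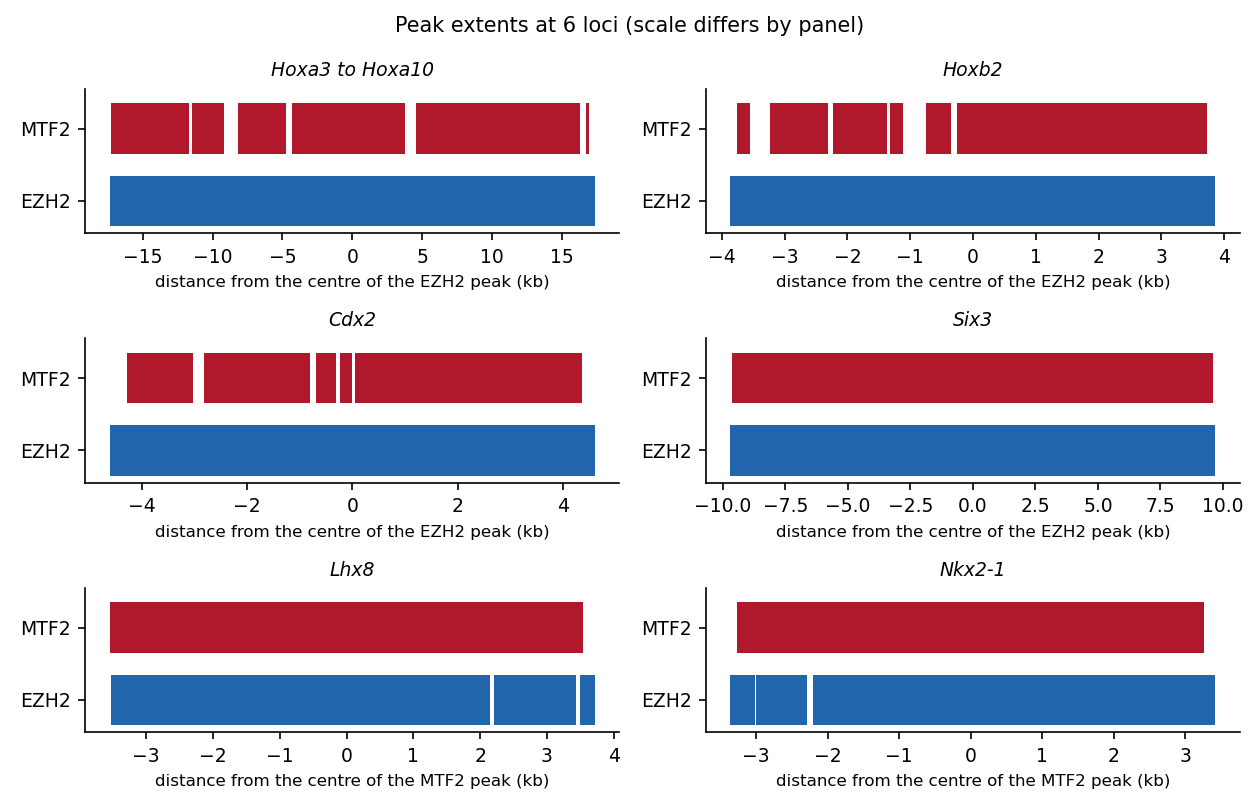
Extents of MTF2 peaks (upper bars) and EZH2 peaks (lower bars) at 6 loci, drawn to scale within each panel, by distance from the centre of the peak that holds the others (horizontal axis, kb). MTF2 is broken into 6, 6 and 5 peaks at Hoxa3 to Hoxa10, Hoxb2 and Cdx2, 1 peak of each factor covers Six3, and EZH2 is broken into 3 at Lhx8 and Nkx2-1.

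CpG density fell off where MTF2 ended and EZH2 went on. In 313 one-to-one pairs the MTF2 peak lay at least 100 bp inside the EZH2 peak on both sides. Under MTF2 these had a median of 6.32 CpG per 100 bp (6.03 to 6.75), in EZH2 beyond MTF2 2.01 (1.76 to 2.17), and in the 500 bp outside EZH2 on either side 1.5 (1.4 to 1.6). Within the pair, CpG was denser under MTF2 than in EZH2 beyond it in 297 of 313 (94.9%, 91.8 to 97.1). The Lmx1b pair above entered the count, but its window under MTF2 was CpG-poor, with 3 CpG and no GCG or CGC in 200 bp. The chromosome 1 pair, with 1 inset of 75 bp, did not enter the count. Over the 313 pairs GCG and CGC followed, with medians of 4.83 per 100 bp under MTF2 and 1.1 in EZH2 beyond it. The mirror image was rare, and was alike in direction: in 26 pairs with EZH2 at least 100 bp inside MTF2 on both sides, there were 5.12 CpG per 100 bp (3.53 to 6.46) in MTF2 beyond EZH2 and 7.69 (6.78 to 9.89) under EZH2. The centre of a peak was thus the denser part in both arrangements. The drop at the inner edge was to 5.12 where MTF2 went on alone and to 2.01 where EZH2 went on alone, in different sets of pairs.

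The breaks within a wide peak were CpG-poor too. Over 314 EZH2 peaks with breaks of at least 50 bp between their MTF2 peaks, the parts under MTF2 held a median of 4.72 CpG per 100 bp (4.43 to 4.93) and the breaks 1.94 (1.72 to 2.22). CpG was denser under MTF2 in 262 of 314 (83.4%, 78.9 to 87.4). Over 235 MTF2 peaks with such breaks between their EZH2 peaks, the breaks held 3.47 CpG per 100 bp (2.94 to 4.29) and the parts under EZH2 5.88 (5.39 to 6.24), denser under EZH2 in 171 (72.8%, 66.6 to 78.4). Breaks in MTF2 had the lower median of the 2 kinds, but so had the parts under MTF2 (4.72) beside the parts under EZH2 (5.88). The 2 kinds of break lie in different sets of peaks, and a difference between the factors was not tested.

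Over whole classes, the 1 kb about the centre held fewer CpG at single-factor peaks. This window is wider than most of them, at median widths of 251 bp for MTF2-only and 256.5 bp for EZH2-only peaks. Their values therefore include much flanking sequence, more than those of shared peaks. MTF2-only peaks had a median of 4.3 CpG per 100 bp (4.1 to 4.7) and shared MTF2 peaks 6.0 (5.9 to 6.1). EZH2-only peaks had 3.4 (3.3 to 3.6) and shared EZH2 peaks 6.0 (6.0 to 6.1). In the narrowest class MTF2-only peaks had 4.3 CpG per 100 bp (4.0 to 4.6) and shared ones 4.0 (3.8 to 4.2), with overlapping intervals. In the next class MTF2-only peaks had 4.6 (4.2 to 5.6) and shared ones 5.0 (4.8 to 5.2), again overlapping. EZH2-only peaks had 3.4 (3.3 to 3.6) and shared EZH2 peaks 4.4 (4.2 to 4.7) in the narrowest class. In the next class they had 3.3 (3.1 to 3.7) and 4.8 (4.6 to 4.9). Widths were not matched within a class, and the part of width was not tested. At promoters the medians were 5.5 in MTF2-only and 7.0 in shared MTF2 peaks, and 5.2 in EZH2-only and 6.9 in shared EZH2 peaks. Away from promoters they were 3.5 and 4.6 for MTF2, and 2.4 and 4.6 for EZH2.

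At the level of genes the factors were called together at most promoters that had either. Of 21951 protein-coding genes, 3326 (15.2%) had both within 1 kb of a TSS, 159 (0.724%) had MTF2 alone and 306 (1.39%) had EZH2 alone. Thus 95.4% of the 3485 genes with MTF2 had EZH2, and 91.6% of the 3632 genes with EZH2 had MTF2. H3K27me3 was called at 96.9% of genes with both, at 66.7% of those with MTF2 alone, at 65.4% of those with EZH2 alone and at 3.77% of genes with neither. H3K4me3 was called at 98.9%, 92.5%, 94.8% and 58.7% in the same order. EZH2 was called in Mtf2 GT/GT cells at 154 genes with both (4.63%), at none of the 159 with MTF2 alone, at none of the 306 with EZH2 alone and at 6 of the 18160 with neither (0.033%). Genes with MTF2 alone were likewise chosen for lacking EZH2 in wild-type cells.

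**Figure D5:**
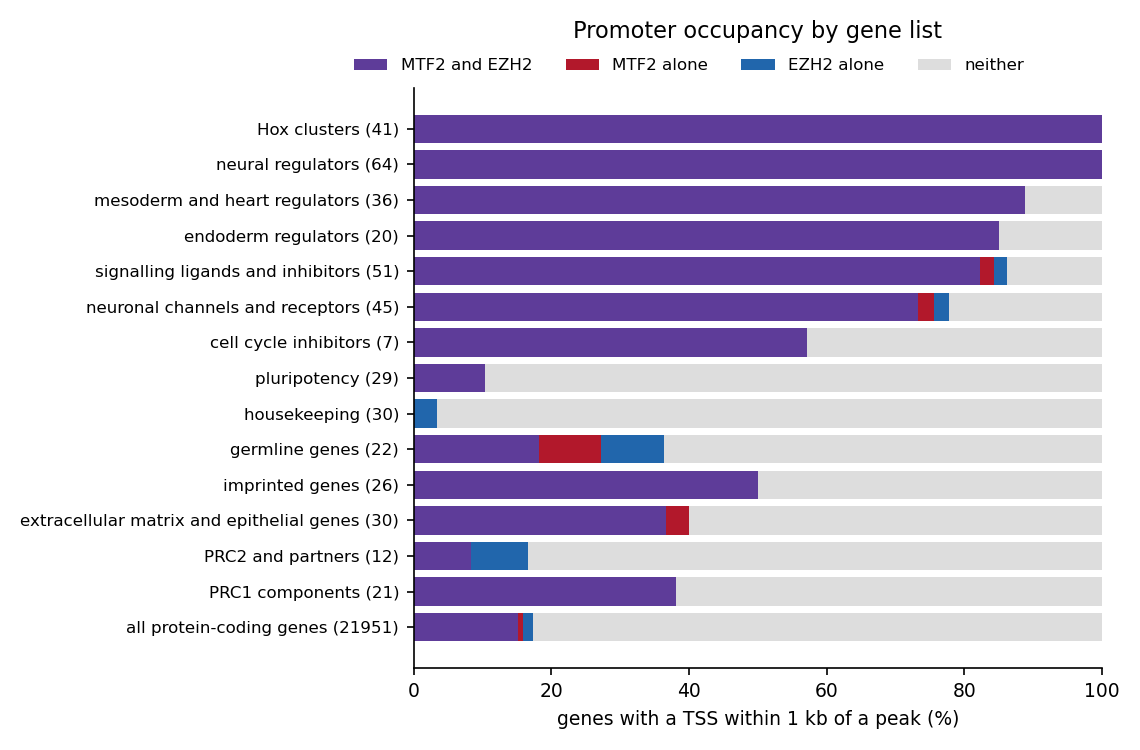
Share of genes (horizontal axis, percent) with MTF2 and EZH2, MTF2 alone, EZH2 alone or neither within 1 kb of a TSS, in 14 gene lists and in all 21951 protein-coding genes; the number of genes is in brackets. All Hox and neural genes have both, against 15.2% of all genes, and 4 of 22 germline genes have a single factor, as many as have both.

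Developmental regulators had both factors nearly without exception. Both were called at 41 of 41 Hox genes and 64 of 64 neural regulators, at 32 of 36 mesoderm and heart regulators and at 17 of 20 endoderm regulators, with no single-factor gene among them, against 15.2% of all genes with both. Beside Six3, Zic2 and Otx1, Msx1, a homeobox factor of limb and face, had 8935 bp of MTF2 and 9063 bp of EZH2. Foxf1, a forkhead factor of lung and gut mesenchyme, had 8380 bp of MTF2 and 9198 bp of EZH2. Lhx1, a LIM homeobox factor of the gastrula organizer, had 8956 bp of MTF2 and 9155 bp of EZH2. Gsc, another homeobox gene of the organizer, had 5957 bp of MTF2 and 6325 bp of EZH2. At Gata6, a regulator of primitive endoderm, 1 MTF2 peak of 8400 bp met 2 EZH2 peaks, of which the widest at the promoter was 4461 bp. At Hoxb5 9185 bp of MTF2 lay beside 10107 bp of EZH2.

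At genes, widths were compared by the widest peak of each factor at the promoter. The median width ratio was -0.18 on the log2 scale over 41 Hox genes, with MTF2 narrower in 37, and -0.073 over all 3326 genes with both, with MTF2 narrower in 2300 (69.2%). The 41 genes share 33 EZH2 peaks, so they are not independent, and Hoxa9 and Hoxa10 share the 11778 bp MTF2 peak and the 34766 bp EZH2 peak. The median was -0.068 for neural, -0.072 for mesoderm and heart and -0.086 for endoderm regulators, and MTF2 was the narrower at 51 of 64, 29 of 32 and 15 of 17 of them.

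Signalling genes, and the genes that mature neurons use, were mostly of the kind with both. Both factors were at 42 of 51 signalling ligands and inhibitors and 33 of 45 neuronal channels and receptors. Dll4, a Notch ligand, had 6490 bp of MTF2 and 7033 bp of EZH2. Gdf7, a TGF-beta family ligand, had 5694 bp of MTF2 and 5652 bp of EZH2, and Fgf9, a fibroblast growth factor, 5407 bp of MTF2 and 5584 bp of EZH2. Gad1, the enzyme that makes the transmitter GABA, had 4271 bp of MTF2 and 4077 bp of EZH2. Among potassium channels, Kcnk9 had 4047 bp of MTF2 and 4481 bp of EZH2, and Kcna1 3752 bp of MTF2 and 3779 bp of EZH2. Each of these lists held 1 gene with MTF2 alone and 1 with EZH2 alone. Inhba, a subunit of activin, had MTF2 alone (674 bp, chr13:16011806-16012479), with the nearest EZH2 peak 2822 bp from its TSS, while Gdf11 had EZH2 alone (433 bp, chr10:128892180-128892612). Of the vesicular glutamate transporters, Slc17a7 had MTF2 alone (329 bp, chr7:45163849-45164177), with the nearest EZH2 peak 3731 bp from its TSS. Slc17a6 had EZH2 alone (200 bp, chr7:51621906-51622105), with the nearest MTF2 peak 5043 bp from its TSS. H3K27me3 was called at all 4 promoters. The 4 single peaks were narrower than the 860 bp and 775 bp that were the medians of the MTF2 and EZH2 lists.

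Germline genes had as many single-factor promoters as promoters with both, 4 and 4 of 22. Over all genes 15.2% had both, near the 18.2% of this list, while 0.724% had MTF2 alone and 1.39% EZH2 alone. Dmrt1, a regulator of the testis, had 1619 bp of MTF2 and 2114 bp of EZH2, Sycp1, a synaptonemal complex protein, had 865 bp of MTF2 and 966 bp of EZH2, and Ddx4, the vasa helicase, had 739 bp of MTF2 and 806 bp of EZH2. MTF2 stood alone at Mael (252 bp), a factor of the piRNA pathway, and Sycp2 (230 bp). EZH2 stood alone at Piwil2 (244 bp), which binds piRNA, and Hormad1 (208 bp), a protein of the meiotic chromosome axis. H3K27me3 was called at all 4.

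Occupancy was partial in further lists, where it is read against the 15.2% of all genes with both factors. Both factors were at 4 of 7 cell cycle inhibitors, with Cdkn1c at 2402 bp of MTF2 and 2433 bp of EZH2, Cdkn2a at 2227 bp of MTF2 and 2392 bp of EZH2, and Cdkn2c at 1805 bp of MTF2 and 2060 bp of EZH2. They were at 13 of 26 imprinted genes. Of these, Dio3, which inactivates thyroid hormone, had 5316 bp of MTF2 and 5388 bp of EZH2, and the growth factor gene Igf2 had 4377 bp of MTF2 and 4724 bp of EZH2. Grb10, an adaptor that dampens insulin signalling, had 3494 bp of MTF2 and 3507 bp of EZH2. This MTF2 peak met 2 EZH2 peaks, and its centre was at -540.5 bp from that of the widest EZH2 peak at the promoter alone. Of 30 extracellular matrix and epithelial genes 11 had both. Cdh11 had 4690 bp of MTF2 and 4697 bp of EZH2, Col2a1, the collagen of cartilage, had 4005 bp of MTF2 and 4842 bp of EZH2, and the N-cadherin gene Cdh2 had 3430 bp of MTF2 and 3443 bp of EZH2. Vim, the gene for vimentin, had MTF2 alone (651 bp, chr2:13574278-13574928) and no H3K27me3, and the nearest EZH2 peak was 218278 bp from its TSS.

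Pluripotency genes were close to the share of all genes. Of 29 pluripotency genes 26 had neither factor, beside 18160 of all 21951 genes (82.7%), and 3 had both: Esrrb (2366 bp of MTF2 and 2434 bp of EZH2), the DNA methyltransferase gene Dnmt3b (861 bp of MTF2 and 722 bp of EZH2) and Prdm14 (508 bp of MTF2 and 332 bp of EZH2). Of 30 housekeeping genes none had both, and B2m, the light chain of MHC class I, had EZH2 alone (233 bp). Among the genes for the complex itself, Mtf2, Ezh2, Eed, Suz12, Jarid2 and Phf1 had neither factor within 1 kb of a TSS and carried H3K4me3 without H3K27me3. Phf19, a Polycomb-like relative of MTF2, had 1339 bp of MTF2 that met 2 EZH2 peaks, the widest at the promoter 548 bp. Aebp2, an accessory subunit of another form of PRC2, had EZH2 alone (211 bp) without H3K27me3. Among PRC1 components, the partner complex that ubiquitinates histone H2A, 8 of 21 had both. Cbx8, a chromodomain subunit, had 2989 bp of MTF2 and 3254 bp of EZH2. Bcor, of a variant PRC1, had 2106 bp of MTF2 and 2581 bp of EZH2, and Yaf2, another variant subunit, had 2068 bp of MTF2 and 2056 bp of EZH2.

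At some of the widest single-factor promoters the other factor was just past the window of 1 kb, with the peak that reached the promoter overlapping it. Of the 10 genes with the widest MTF2-only promoter these were Ggn (846 bp of MTF2, EZH2 1023 bp from the TSS) and Spx (676 bp of MTF2, EZH2 at 1044 bp). Of the 10 with the widest EZH2-only promoter they were 5. Foxq1, a forkhead gene, had 3188 bp of EZH2 with MTF2 1024 bp from the TSS. Nhlh2, a neuronal bHLH factor, had 2610 bp of EZH2 with MTF2 at 1113 bp. The neuropeptide gene Vgf had 1539 bp with MTF2 at 1165 bp, Lrg1 1391 bp with MTF2 at 1022 bp, and Rbpjl 1035 bp with MTF2 at 1033 bp. Over all single-factor genes this was rare: the peak overlapped the other factor at 2 of 159 genes with MTF2 alone and at 6 of 306 with EZH2 alone.

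At most of the others the second factor was far away, while Inhba, described above, lay between, with EZH2 2822 bp from its TSS. MTF2 alone was called at Trim7 (778 bp), Fgfbp3 (747 bp), Slc35d1 (645 bp), Usp3 (633 bp), Mfsd4b1 (628 bp) and Zeb1 (642 bp), a regulator of epithelial to mesenchymal transition, beside Vim. The nearest EZH2 peak was between 65201 bp (Mfsd4b1) and 956058 bp (Zeb1) from the TSS of these 6, and Fgfbp3 and Slc35d1 lacked H3K27me3. EZH2 alone was called at Tppp (1312 bp), a tubulin-binding protein, Impdh1 (1109 bp), an enzyme of guanine nucleotide synthesis, Mypop (960 bp), Hid1 (811 bp) and Frat1 (753 bp), a GSK3-binding protein. The nearest MTF2 peak was between 14188 bp (Hid1) and 111514 bp (Tppp) from the TSS, and all 5 carried H3K27me3 and H3K4me3. Over all genes the median distance from the TSS to the other factor was 133374 bp for the 159 genes with MTF2 alone and 110593 bp for the 306 with EZH2 alone.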

How the data were processed

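ChIP-seq peak lists of wild-type E14 cells for MTF2 and EZH2 were compared. The authors deposited each list as chromosome, start and end in bp (positions, with no score or count), 1 list per group of 2 libraries. Per the labels' protocols, 5 ng of ChIP DNA per sample was amplified with 10 cycles of PCR, size-selected to 300 bp and sequenced in reads of 75 bp. The submitters' processing notes list MACS2 2.7, BWA 0.7.10-r789, CASAVA and the build mm10 (GRCm38). Their roles, the peak threshold, the control and the treatment of replicates are not given in the sources used here. The lists do not show depth.

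From these, overlaps of at least 1 bp, widths, edges and centres were computed in Python 3.11.15 (pandas 2.3.3, scipy 1.17.1). One-to-one pairs are peaks that overlap only each other. Promoters are 1 kb on either side of any TSS of 21951 protein-coding genes in the basic set of GENCODE M21. A gene's width is that of its widest promoter peak. CpG, and GCG or CGC, were counted in the RefSeq GRCm38 sequence. The computation of overlaps and intervals was tested on simulated data.

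Members and gene lists (14 lists, 433 symbols, 3 not annotated as protein-coding) were chosen with earlier results of these data known. Named were, per list, the 3 genes with both factors and the widest MTF2 peak, and all single-factor genes. Then came the 10 widest genes of each single-factor class and the 5 peaks of each factor holding most of the other. Further ones were the 5 one-to-one pairs with the widest MTF2 peak, the 5 most unequal pairs in each direction, and 7 PRC2 genes. One of the most unequal pairs is not reported here. The analysis of breaks, near and far peaks and reverse nesting, and the Sycp2, Gdf11, Lmx1b and chromosome 1 sequences, were chosen after values were seen. The alternatives tried are a minimum overlap of 50% of the shorter peak, peaks of at least 500 bp alone, peaks within 1 kb joined, promoter windows of 2.5 kb, and the TSS inside the peak.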

Additional observations from a re-analysis of the deposited data

How the results depend on the processing

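With 1 list per antibody and no heights, replicate error, depth and binding strength could not be measured, and widths depend on the peak caller, threshold and antibody. No paired analysis was possible because each group has 1 list, whose columns carry no replicate, so leaving out a replicate could not be run either. Requiring 50% of the shorter peak changed the shared shares to 92.8% of MTF2 and 79.4% of EZH2 peaks. When peaks under 500 bp were left out of each list these were 95.5% and 89.4%. The centre offset was then 48.5 bp, MTF2 inside EZH2 46.0%, EZH2 peaks with several MTF2 peaks 146, MTF2 peaks with several EZH2 peaks 83, H3K27me3 at 89.2% of MTF2-only and 94.0% of EZH2-only peaks, and genes with EZH2 alone 171. In that setting a peak whose only partners were under 500 bp counted as single-factor. Its single-factor classes are therefore not those of the main setting, and their H3K27me3 shares are not comparable with it. With peaks within 1 kb joined in each list, 94.5% of MTF2 and 89.0% of EZH2 peaks were shared. The log2 width ratio was then -0.091, the centre offset 54.5 bp, MTF2 inside EZH2 45.7%, EZH2 peaks with several MTF2 peaks 105, MTF2 peaks with several EZH2 peaks 4, and H3K27me3 at 68.1% of MTF2-only and 66.8% of EZH2-only peaks. The log2 width ratio stayed negative under each alternative, while shares, counts and absolute offsets have no sign that could change. The order of H3K27me3 between MTF2-only and EZH2-only peaks, 75.4% and 83.6% as reported, turned round after joining. The counts of genes with both factors and with MTF2 alone stayed within 1.5 times under the 4 alternatives run for them.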
